A study of Mus musculus with 8 samples.

Results

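The nuclear genes for subunits of the oxidative phosphorylation machinery were compared between mouse macrophages kept without serine and glycine and control macrophages. Members were all genes of the deposited table whose symbol starts with Ndufa, Ndufb, Ndufc, Ndufs or Ndufv and a digit, with Uqcr, with Cox4 to Cox8 or with Atp5, and the genes Sdha to Sdhd. The rule took 85 of 17492 genes: 40 of complex I, 4 of complex II, 8 of complex III, 16 of complex IV and 17 of complex V. Of these, 77 of 11700 genes passed the filter on low counts and were tested. The rule reads symbols, so it also takes Ndufa4, now counted with complex IV, and Cox7a2l and Atp5s, which are not strict subunits. Cyc1, a core subunit of complex III, and Cycs, the mobile cytochrome c, do not match it and are given with the electron carriers below. The subunits encoded by mitochondrial DNA were not analysed here.

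The macrophages had been differentiated in culture from bone marrow of C57BL/6 mice. According to the labels there were 4 libraries of cells in medium lacking serine and glycine, termed serine deficiency, and 4 of untreated cells in normal medium. Neither group carries a stated genetic change. The labels name no stimulus, no duration of the withdrawal and no separate animals or cultures, so p-values measure only the spread between these libraries, which may be technical. In bulk RNA, fewer expressing cells and less RNA per cell cannot be told apart.

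Oxidative phosphorylation uses electrons from NADH and succinate to pump protons across the inner mitochondrial membrane. Complexes I and II pass electrons to coenzyme Q, complex III passes them to cytochrome c, complex IV passes them to oxygen, and complex V, the ATP synthase, uses the proton gradient to make ATP. Macrophages are known to shift between glycolysis and respiration with their state of activation. Serine and glycine feed the folate-dependent carbon pool, which mitochondria also use when they build their own proteins.

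Library totals lay between 17565291 and 18201599 estimated counts, and a count of 0 allows up to 3 counts, or 0.164 to 0.171 CPM, which covers counting error only. CPM are read counts scaled to a common library size on edgeR's TMM scale, which evens out library composition. Summed over 7 macrophage markers (among them Adgre1, Csf1r and Lyz2), the level was 18400 to 18900 CPM in control and 18400 to 18700 CPM in serine/glycine-free libraries. All 7 passed the test singly, 4 higher and 3 lower (edgeR), so the like sums do not mean that each marker was level. Lists of other cell types held 7 neutrophil genes (0.772 to 1.17 CPM in control, 1.94 to 2.34 CPM in serine/glycine-free libraries), 5 dendritic cell genes (1.21 to 1.98 and 1.34 to 1.66 CPM), 4 B cell genes (43.4 to 51.1 and 32.1 to 38.9 CPM, nearly all of it Cd79b) and 3 endothelial genes (63.9 to 73.0 and 51.6 to 56.2 CPM, nearly all of it Pecam1). In single libraries Ms4a1 reached at most 0.386 CPM, Cdh5 0.987 CPM and Elane 0.0557 CPM. The part of these small shifts in the results below was not tested. The T and NK cell, mast cell, erythroid and stromal lists each summed to at most 1.54 CPM.

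Most tested subunit genes were well expressed in the macrophages. Levels between genes are given in FPKM, the authors' value per kilobase of transcript. Atp5b, the catalytic beta subunit of ATP synthase, was the highest member of complex V at 487 ± 2.76 FPKM in control and 473 ± 6.1 FPKM in serine/glycine-free libraries (SD, n = 4). Cox8a, a small membrane subunit of complex IV, was the highest of all tested members at 585 ± 23.0 and 606 ± 38.9 FPKM. Ndufa4, placed with complex I by its symbol only, led that set at 246 ± 6.88 and 257 ± 13.0 FPKM. Uqcrb led the genes of complex III at 203 ± 5.86 and 228 ± 16.9 FPKM, and Sdhb those of complex II at 133 ± 1.45 and 138 ± 6.58 FPKM. The lowest tested member, Atp5s, also known as factor B of the ATP synthase, was at 4.13 ± 0.273 and 4.69 ± 0.593 FPKM. Within a complex the transcripts therefore did not stand at equal levels. In complex I without Ndufa4, the mean of tested members over all libraries ran from 15.1 FPKM for Ndufa11 to 190 FPKM for Ndufb8.

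**Figure D1:**
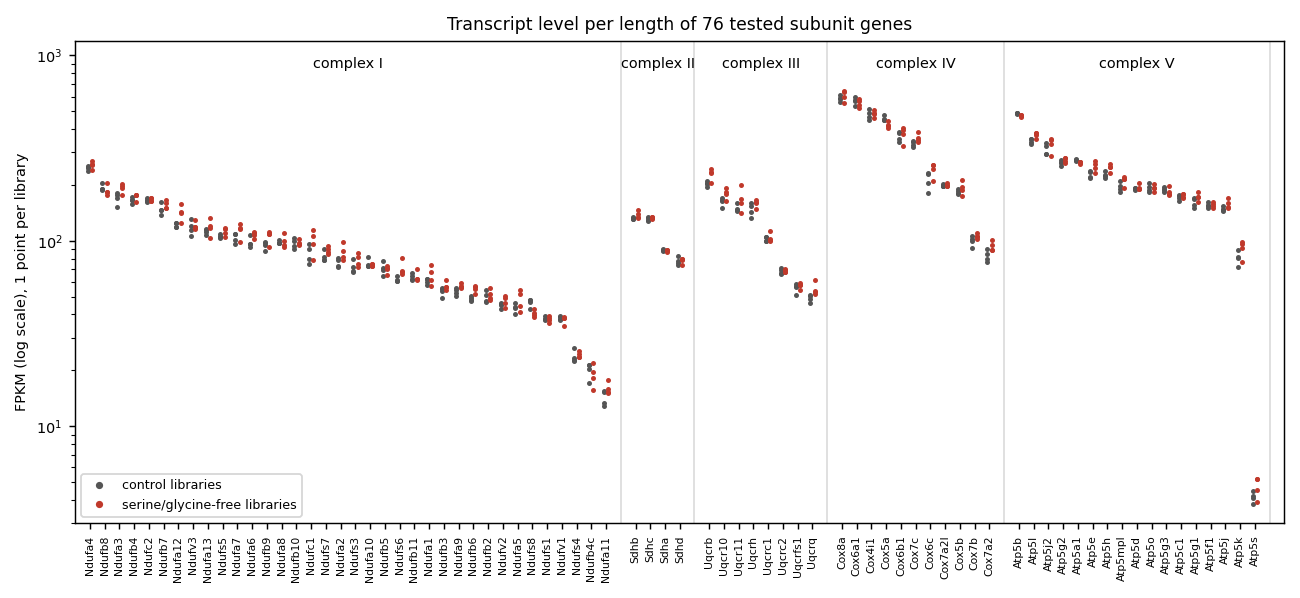
FPKM on a log scale of 76 of the 77 tested subunit genes, ordered by mean level within complexes I to V, with 1 point per library (grey, control; red, serine/glycine-free). The points of the groups lie close together for most genes, and levels span from about the 4.41 FPKM of Atp5s to the 596 FPKM of Cox8a.

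The summed level of each complex differed little between the groups. All 85 members summed to 11810 ± 249 FPKM in control and 12270 ± 525 FPKM in serine/glycine-free libraries (SD, n = 4). In control replicates 1 to 4 the sum was 12100, 11610, 11610 and 11950 FPKM, and in serine/glycine-free replicates 1 to 4 it was 12240, 11580, 12430 and 12840 FPKM. The groups overlapped, because serine/glycine-free replicate 2 was the lowest of the 8 libraries. By complex, the sums were 3251 ± 98.4 and 3429 ± 160 FPKM for complex I, 430 ± 6.16 and 437 ± 4.83 FPKM for complex II, 937 ± 15.1 and 1019 ± 64.3 FPKM for complex III, 3572 ± 80.5 and 3639 ± 180 FPKM for complex IV, and 3625 ± 67.6 and 3750 ± 128 FPKM for complex V. Complex III had the largest shift relative to its level, and there serine/glycine-free replicate 2, at 933 FPKM, again lay among the controls, which ran from 915 to 949 FPKM.

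Without serine and glycine, 16 of the 77 tested subunit genes were higher, 2 were lower and 59 did not pass an adjusted p of 0.05 (edgeR quasi-likelihood, adjusted over all 11700 genes). These 18 calls are 23.4% of the tested members, against 33.2% of all genes tested. Taken by direction, 20.8% of the tested members were higher against 15.9% of all genes, and 2.6% were lower against 17.3%. The changes were small. The fitted log2 change of serine/glycine-free over control ran from -0.19 for Ndufs8 to 0.23 for Ndufa12, with a median of 0.066 against 0.0074 over all genes, and 61 of 77 were above 0. The groups did not overlap in CPM for 5 tested members, or 6.49%, against 30.6% of all genes: Ndufs6 and Ndufb6 lay higher without serine and glycine (all genes 14.5%), and Ndufs8, Atp5a1 and Atp5b lay lower (all genes 16.2%). With each library's trend in transcript length removed (below), 2 subunit genes were higher and 10 lower, and 14 of the 16 rises did not pass. The largest fold among the tested members was 1.17. The calls were spread over 4 of the 5 complexes: 8 higher and 1 lower in complex I, none in complex II, 3 higher in complex III, 2 higher and 1 lower in complex IV, and 3 higher in complex V.

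**Figure D2:**
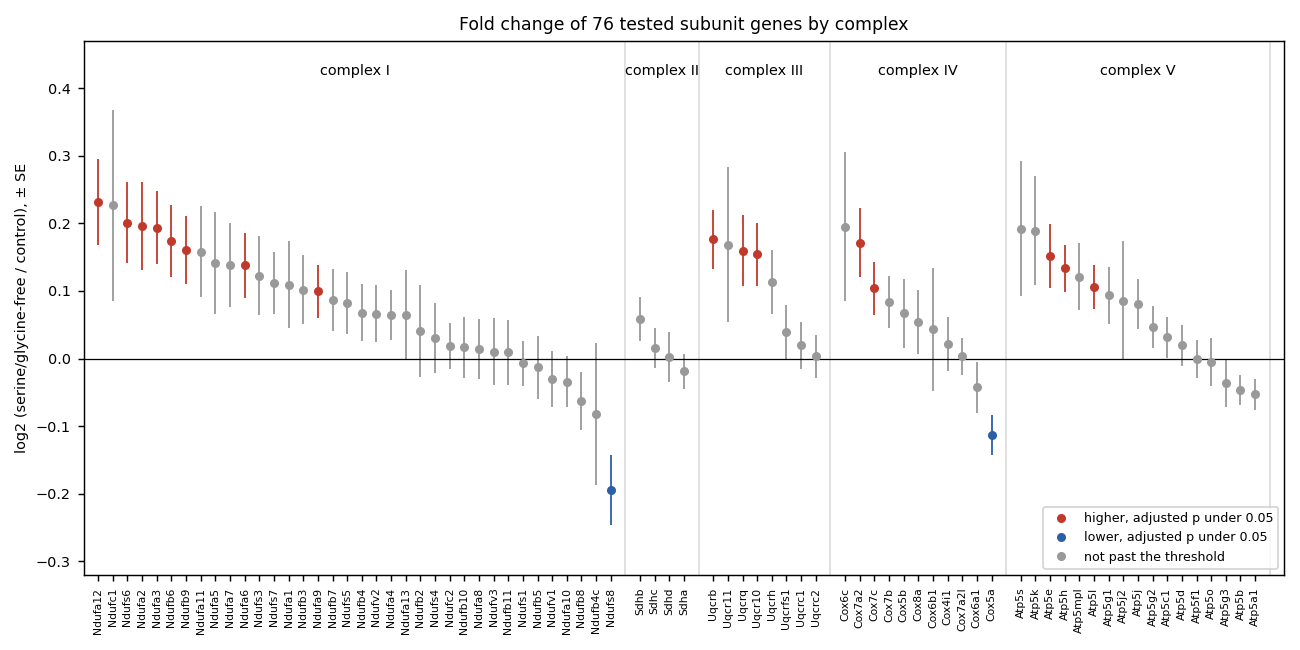
Fitted log2 change (serine/glycine-free over control) with its standard error for 76 of the 77 tested subunit genes, ordered within each complex; red and blue points passed an adjusted p of 0.05 upward or downward, grey did not. Most points lie between 0 and 0.2, and Ndufs8 and Cox5a are the only blue points.

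In complex I, the peripheral arm holds the flavin and the iron-sulfur clusters that carry electrons from NADH to coenzyme Q. Of its 7 nuclear core subunits none was higher and 1 was lower, Ndufs8 (edgeR quasi-likelihood, against 15.9% and 17.3% of all genes). At an unadjusted p under 0.05, 1 was higher, and 0 were higher by DESeq2 and limma-voom. Ndufs8 binds iron-sulfur clusters near the coenzyme Q site. Ndufs8 stood at 33.3, 29.7, 31.8 and 32.9 CPM in control replicates 1 to 4 and at 28.3, 26.4, 27.4 and 29.6 CPM in serine/glycine-free replicates 1 to 4. Every serine/glycine-free library lay below every control library, though the highest of the former and the lowest of the latter were close. The gene was 1.14-fold lower (log2 change -0.19, SE 0.051, adjusted p = 0.00261), and the call held without each of the 8 libraries in turn.

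The other 6 core subunits did not pass. Ndufv1, which holds the flavin that accepts electrons from NADH, changed by -0.030 (SE 0.041, adjusted p = 0.626), with CPM of 55.8 ± 1.52 in control and 54.7 ± 2.75 in serine/glycine-free libraries (SD, n = 4, edgeR). Its partner Ndufv2 was at 62.7 ± 2.3 and 65.6 ± 4.31 CPM with overlapping groups (log2 change 0.066, adjusted p = 0.234). Ndufs1, the largest iron-sulfur subunit, was at 99.3 ± 2.26 and 98.8 ± 3.29 CPM. For Ndufv1 and Ndufs1 the difference was smaller than the spread between libraries. Ndufs3 (log2 change 0.12, SE 0.058, adjusted p = 0.120) and Ndufs7, which holds the last cluster before coenzyme Q (0.11, SE 0.046, adjusted p = 0.0608), lay higher on average, with overlapping groups.

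All 8 complex I genes that rose (21.6% of those tested, against 15.9% of all genes) encode accessory subunits. Accessory subunits surround the core and are needed for its assembly and stability. Of 30 genes counted as accessory, Ndufa4 among them by its symbol only, 22 did not pass. Ndufa12, an accessory subunit of the peripheral arm, rose most: it was at 51.7, 48.6, 48.4 and 51.4 CPM in the control replicates and at 59.4, 50.9, 58.2 and 66.5 CPM in the serine/glycine-free replicates (log2 change 0.23, SE 0.064, adjusted p = 0.0112). Its serine/glycine-free replicate 2 lay within the control range and replicate 4 far above it. Ndufs6, a zinc-binding subunit of the same arm, was at 21.7, 22.0, 21.5 and 23.3 CPM in control and at 24.4, 23.6, 24.6 and 29.2 CPM in serine/glycine-free replicates, with no overlap (log2 change 0.20, SE 0.060, adjusted p = 0.00791). Ndufb6, a subunit of the membrane arm, was at 25.9, 24, 24.2 and 25.2 CPM in control and at 29.1, 26.1, 28 and 29 CPM in serine/glycine-free replicates (log2 change 0.17, SE 0.053, adjusted p = 0.00899). Its groups did not overlap either, though replicate 2 without serine and glycine lay just above the highest control.

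Ndufa3, a small membrane-arm subunit and the shortest tested transcript of complex I, rose from a mean of 34.3 ± 2.75 to 39.3 ± 2.68 CPM (a log2 change of 0.19, SE 0.054, adjusted p = 0.00535). Ndufa2 of the peripheral arm rose from 34.5 ± 2.04 to 39.5 ± 4.38 CPM (0.20, adjusted p = 0.0264), and Ndufb9 of the membrane arm from 47.5 ± 2.43 to 53.1 ± 4.41 CPM (0.16, adjusted p = 0.0145). Ndufa6, which like Ndufb9 belongs to the LYR family of small mitochondrial proteins, rose from 40.4 ± 3.03 to 44.5 ± 1.89 CPM (0.14, adjusted p = 0.0229), and Ndufa9, a nucleotide-binding subunit, from 62.5 ± 2.81 to 67.0 ± 2.08 CPM (0.10, adjusted p = 0.0441; all SD, n = 4, edgeR). The groups overlapped for each of these 5 genes. By DESeq2 Ndufa6 (adjusted p = 0.0691) and Ndufa9 (0.114) did not pass, and Ndufa9 did not pass without the filter on low counts (0.0812) or with the replicate number as a block (0.0588) in edgeR either. Several of the calls were lost when 1 library was left out, for some genes with any of several libraries. Ndufs6 no longer passed when serine/glycine-free replicate 4 was left out (adjusted p = 0.0858), nor did Ndufb9 when serine/glycine-free replicate 1 or 3 or control replicate 2 was left out (up to 0.067). Ndufa6 lost its call without serine/glycine-free replicate 3 or 4 or control replicate 2, 3 or 4 (adjusted p up to 0.102), Ndufa2 without serine/glycine-free replicate 1 or 4 or control replicate 2 or 3 (up to 0.0868), and Ndufa9 without serine/glycine-free replicate 2, 3 or 4 or control replicate 2 or 3 (up to 0.183). Leaving out any 1 library did not end the calls of Ndufa12, Ndufb6 and Ndufa3.

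The promoter of Ndufs8, which fell, is shown beside those of Ndufb6 and Uqcr10, a complex III gene that rose (below), because nuclear subunit genes are known for promoters that bind NRF1, ETS-family factors such as GABP, and YY1. Each run is the 250 bases before the gene's start in RefSeq's GRCm38.p6, on the minus strand and written 5′ to 3′; capitals mark matches to the motifs searched, and the annotation used places no exon in them. Ndufs8 at chr19:3912775-3913024 holds 3 CCAAT boxes, Ndufb6 at chr4:40279422-40279671 an ETS and an NRF1 motif, and Uqcr10 at chr11:4704345-4704594 a CCAAT box. The same window of Ndufa9, which also rose, holds none of the 4 motifs searched.
Ndufs8: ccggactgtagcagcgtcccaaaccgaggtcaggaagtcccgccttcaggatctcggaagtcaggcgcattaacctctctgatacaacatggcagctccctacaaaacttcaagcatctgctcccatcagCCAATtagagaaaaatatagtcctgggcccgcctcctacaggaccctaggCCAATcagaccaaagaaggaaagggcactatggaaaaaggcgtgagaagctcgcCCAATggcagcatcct
Ndufb6: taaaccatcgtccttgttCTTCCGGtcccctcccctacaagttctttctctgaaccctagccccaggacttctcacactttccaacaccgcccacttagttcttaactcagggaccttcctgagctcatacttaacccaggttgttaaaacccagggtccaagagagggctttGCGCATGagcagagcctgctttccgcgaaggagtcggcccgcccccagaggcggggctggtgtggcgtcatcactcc
Uqcr10: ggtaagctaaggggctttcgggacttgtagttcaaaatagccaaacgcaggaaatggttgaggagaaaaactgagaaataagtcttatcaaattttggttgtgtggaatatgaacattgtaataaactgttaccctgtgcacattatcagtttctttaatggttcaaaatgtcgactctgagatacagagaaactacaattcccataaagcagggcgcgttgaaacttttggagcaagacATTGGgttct
Motifs were searched on both strands in the 300 bases from 250 before to 50 after each start, which were given for 64 of the 77 tested members and for 9428 of all genes tested. The NRF1 core GCGCATG was in 20.3% of these members against 8.19% of all, the ETS motif CCGGAAG in 25.0% against 21.2%, the YY1 core ATGGCGG in 15.6% against 9.89%, and CCAAT in 42.2% against 43.5%. A match describes letters only and shows no binding, and the shares cover members whatever their change in expression.

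Complex II, succinate dehydrogenase, belongs both to the respiratory chain and to the citric acid cycle, and it is encoded by nuclear genes alone. None of its 4 genes passed (edgeR quasi-likelihood), against 33.2% of all genes. The count was also 0 at an unadjusted p under 0.05 and by DESeq2 and limma-voom. Sdha, the flavin-bearing catalytic subunit, was at 239, 244, 242 and 242 CPM in control replicates 1 to 4 and at 241, 240, 238 and 236 CPM in serine/glycine-free replicates 1 to 4. The libraries lay within a few percent of each other and the groups overlapped (log2 change -0.019, SE 0.026, adjusted p = 0.630). Sdhb, its iron-sulfur partner, was at 123 ± 1.74 and 128 ± 6.54 CPM (0.058, SE 0.033, adjusted p = 0.176). The membrane anchors Sdhc (log2 change 0.015, SE 0.030) and Sdhd (0.0023, SE 0.037) did not differ beyond the spread.

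Complex III showed rises in 3 of its 8 genes (37.5%, against 15.9% of all genes), all small subunits. Its median log2 change of 0.13 was the highest of the 5 complexes. With the length trend removed (below) the median was 0.012, and of the 3 only Uqcrq stayed higher. Uqcrb, a small subunit near the coenzyme Q site, was at 72.7, 69.0, 72.0 and 74.4 CPM in the control replicates and at 86.6, 72.1, 82.0 and 84.7 CPM without serine and glycine (log2 change 0.18, SE 0.044, adjusted p = 0.00238). Replicates 1, 3 and 4 without serine and glycine lay above all controls and replicate 2 among them. Uqcr10 was at 52.3, 45.9, 49.9 and 49.6 CPM in control and at 54.7, 50.2, 55.4 and 59.9 CPM in serine/glycine-free replicates, again with replicate 2 alone inside the control range (0.15, SE 0.047, adjusted p = 0.0099). Uqcrq, another small subunit, was at 70.9, 68.7, 63.0 and 67.0 CPM in control and at 73.7, 70.0, 72.6 and 85.1 CPM without serine and glycine (0.16, SE 0.053, adjusted p = 0.0261). Here replicate 4 stood well above the rest. The call of Uqcrb held without each library, that of Uqcr10 was lost when control replicate 2 was left out (adjusted p = 0.060), and that of Uqcrq without serine/glycine-free replicate 4 or control replicate 3 or 4 (up to 0.0726).

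The 3 larger subunits of complex III did not pass. The core proteins Uqcrc1, at 154 ± 4.69 and 156 ± 9.9 CPM, and Uqcrc2, at 119 ± 4.08 and 119 ± 2.01 CPM (SD, n = 4), and the Rieske iron-sulfur protein Uqcrfs1, at 65.0 ± 3.81 and 66.8 ± 2.78 CPM, had log2 changes of 0.019, 0.0032 and 0.039. Uqcrc2 had estimated counts that were not whole in 6 libraries, so some of its reads were shared with other loci.

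Complex IV, cytochrome c oxidase, had 2 genes that rose and 1 that fell among 11 tested (18.2% and 9.09%, against 15.9% and 17.3% of all genes). Cox5a, a nuclear subunit on the matrix side, fell: it was at 249, 259, 244 and 244 CPM in the control replicates and at 230, 220, 226 and 245 CPM without serine and glycine. Only serine/glycine-free replicate 4 reached the control range. The log2 change was -0.11 (SE 0.030, adjusted p = 0.0029), and the call held without each library. As counted, its neighbours in the complex did not follow it. Cox4i1, which contacts the catalytic core, was at 285 ± 16.8 and 290 ± 13.3 CPM (log2 change 0.022, SE 0.040, adjusted p = 0.727). Cox5b, a zinc-binding subunit, was at 77.6 ± 2.38 and 81.3 ± 7.57 CPM (0.067, SE 0.052, adjusted p = 0.360). With the length trend removed (below, edgeR), Cox4i1 was lower too (-0.068, adjusted p = 0.0412), as was Cox6a1 (-0.16, adjusted p = 0.000296). Cox5b did not pass there (-0.045, adjusted p = 0.333).

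The complex IV genes that rose were Cox7a2 and Cox7c, both small membrane subunits. Cox7a2, the widely expressed isoform of subunit 7a, was at 52.0, 48.4, 46.4 and 54.9 CPM in control and at 54.0, 53.7, 57.4 and 62.2 CPM in serine/glycine-free replicates (log2 change 0.17, SE 0.051, adjusted p = 0.011). The groups overlapped through control replicate 4, and no left-out library ended the call. Cox7c went from 101 ± 4.13 to 109 ± 7.11 CPM (0.10, SE 0.039, adjusted p = 0.0394), a call lost without serine/glycine-free replicate 3 or 4 or control replicate 3 or 4 (adjusted p up to 0.192) and by DESeq2 (adjusted p = 0.0814). Cox6a1, Cox6b1 and Cox8a, also widely expressed forms, had log2 changes of -0.043, 0.043 and 0.054 and did not pass.

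The tissue-restricted forms of complex IV were almost silent. Cox6a2 and Cox7a1, the forms of heart and skeletal muscle, had 5 to 14 and 8 to 14 counts per library, Cox6b2, known from testis, 2 to 9, Cox4i2, known from lung and induced by low oxygen, 0 to 3, and Cox7b2 0 to 1. With 3 complex I genes, Ndufa4l2, a paralog of Ndufa4 induced by low oxygen (0 to 2 counts), Ndufb4b (0 to 5.76 counts) and Ndufa11b (0 to 1 count), these are the 8 members below the filter. Cox4i2 was at 0.0559, 0, 0.0561 and 0 CPM in control and at 0.11, 0.111, 0.167 and 0.171 CPM in serine/glycine-free libraries, around the level that a count of 0 allows. No fold is given for it. Cox8b and Cox8c were not analysed here. Cox4i1, by contrast, averaged 479 ± 26.3 FPKM in control libraries. Cox7a2l, a paralog of Cox7a2, was at 186 ± 1.43 and 186 ± 4.29 CPM (log2 change 0.0033).

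Complex V consists of the F1 head, which makes ATP, a membrane rotor and a peripheral stalk. Of its 17 genes 3 rose (17.6%, against 15.9% of all genes) and none fell (against 17.3%, edgeR quasi-likelihood). At an unadjusted p under 0.05, 2 fell, and 0 fell by DESeq2 and limma-voom. Atp5h, subunit d of the stalk, was at 98.9, 96.6, 94.3 and 103 CPM in control and at 112, 101, 108 and 110 CPM in serine/glycine-free replicates (log2 change 0.13, SE 0.035, adjusted p = 0.00259). Replicate 2 without serine and glycine again lay inside the control range. Atp5l, subunit g of the membrane part, rose from 127 ± 3.74 to 136 ± 6.29 CPM (0.11, SE 0.033, adjusted p = 0.00944), and Atp5e, the epsilon subunit of the head, from 60.7 ± 3.33 to 67.4 ± 5.09 CPM (0.15, SE 0.047, adjusted p = 0.0137). The call of Atp5h held without each library, that of Atp5l ended when control replicate 2 was left out (adjusted p = 0.0583), and that of Atp5e without serine/glycine-free replicate 3 or control replicate 2 or 3 (up to 0.0612).

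The catalytic genes of the F1 head did not rise. Atp5a1, the alpha subunit, was at 620, 631, 621 and 627 CPM in the control replicates and at 592, 600, 604 and 613 CPM without serine and glycine. All 4 of the latter were lower than all 4 of the former, but the change did not pass (log2 change -0.053, SE 0.023, adjusted p = 0.0737); without serine/glycine-free replicate 4 it did, at -0.060. Atp5b, the beta subunit, was at 850, 836, 846 and 850 CPM in control and at 825, 800, 826 and 822 CPM in serine/glycine-free replicates (-0.047, SE 0.022, adjusted p = 0.103), again without overlap. Atp5c1, the gamma subunit of the central shaft, was at 174 ± 6.22 and 178 ± 5.14 CPM (0.031, adjusted p = 0.461). The 3 genes Atp5g1, Atp5g2 and Atp5g3 encode the same subunit c of the rotor ring, and their log2 changes were 0.094 (adjusted p = 0.0924), 0.047 (0.253) and -0.036 (0.472).

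The order of the libraries recurred across the complexes. The median of the tested members' log2 deviations from the control mean was 0.0462, -0.0211, 0.0820 and 0.156 in serine/glycine-free replicates 1 to 4, and 0.0472, -0.0229, -0.0382 and 0.0185 in control replicates 1 to 4. Serine/glycine-free replicate 4 thus stood above all other libraries, while replicate 2 stood among the controls and control replicate 1 with the serine/glycine-free libraries. Replicate 4 was the highest of the 8 libraries in 43 of 77 tested members (55.8%, against 17.4% of all genes). Replicate 2 was the lowest of its group in 54 of 77 and below the control median in 47, counts for which no share of all genes is given. It was the lowest of the 8 libraries in 18.2% of the tested members, against 10.3% of all genes. In complexes I, III, IV and V replicate 4 was again the highest library and replicate 2 lay among the controls, whereas in complex II all medians lay between -0.0204 and 0.0456.

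**Figure D3:**
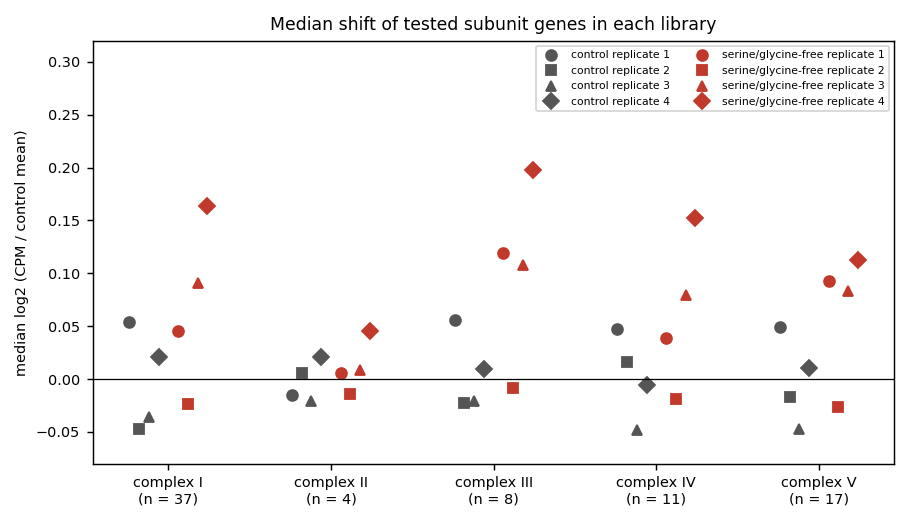
Median log2 deviation from the control mean over the tested members of each complex, 1 symbol per library (grey, control; red, serine/glycine-free; symbol shape, replicate number). Serine/glycine-free replicate 4 is the highest symbol in all 5 complexes and replicate 2 lies among or below the controls.

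The number of calls followed these libraries. Without serine/glycine-free replicate 2, 32 subunit genes were higher and 2 lower, where all genes gave 15.2% and 16.7%; 15 of the rises were in complex I, 5 in complex III, 4 in complex IV and 8 in complex V. Without serine/glycine-free replicate 4, 10 were higher and 4 lower (all genes 14.7% and 16.5%), and without control replicate 2, 10 were higher and 2 lower (all genes 13.7% and 16.1%). Genes that passed upward without serine/glycine-free replicate 2, but not with all libraries, included Ndufv2 (edgeR, adjusted p = 0.0432), Ndufs3 (0.017) and Ndufs7 (0.0489). Ndufa4 (0.0357), Cox5b (0.0267), Cox8a (0.0195) and Atp5g1 (0.017) were also among them. Further subunit genes not listed here passed as well, some at a smaller adjusted p. Ndufs3 also passed without control replicate 2, and Ndufs7 without serine/glycine-free replicate 1 or control replicate 1. At an adjusted p of 0.01 the count was 7 higher and 2 lower (all genes 10.6% and 13.1%).

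Subunit transcripts are short, and short transcripts as a class lay higher without serine and glycine. Effective length, the number of positions a fragment can start from, was derived from counts and FPKM; its median was 534 bases for the tested members and 2710 bases for all genes. Over all genes in length bins, the median log2 change fell from 0.15 for those up to 300 bases (n = 42) through 0.11 for 300 to 500 (n = 190) and 0.033 for 1200 to 2000 (n = 2308) to -0.063 above 5000 bases (n = 1739). Across genes, Spearman's rho of log2 change with length was -0.482 over the 77 tested members and -0.253 over all tested genes with a derived length. Genes of 1 set of libraries are not independent and no p is given. Up to 500 bases, 11 of 34 tested members (32.4%) and 26.7% of 232 genes were higher. From 500 to 1000 bases the members had 3 of 23 higher and 2 lower (13.0% and 8.7%), against 25.2% and 6.71% of 834 genes, and above 1000 bases 2 of 20 higher (10%) and 0 lower, against 14.9% and 18.6% of 10571 genes (edgeR). Of these 20, Atp5a1 and Atp5b were lower at an unadjusted p under 0.05.

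**Figure D4:**
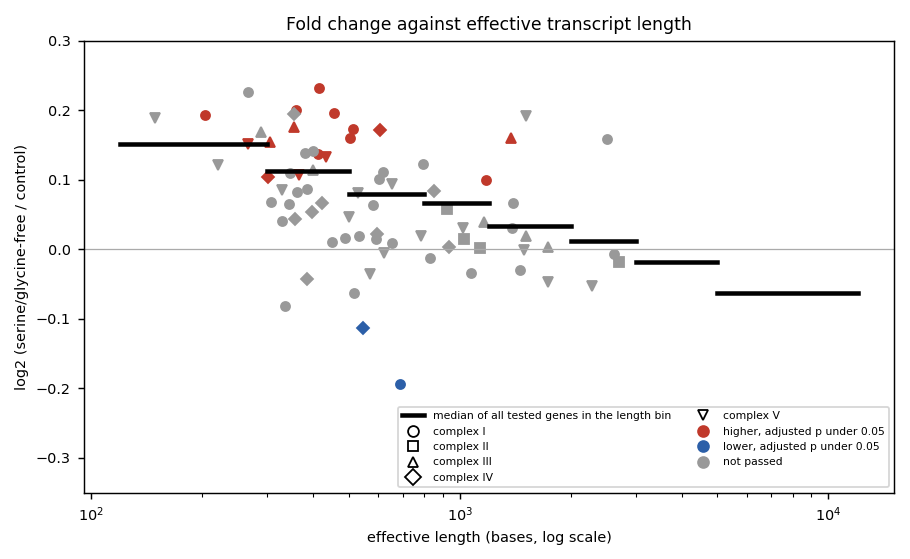
Log2 change (serine/glycine-free over control) of 76 tested subunit genes against effective length in bases on a log axis, with symbols for complexes I to V, red and blue for calls at an adjusted p of 0.05, and black bars for the median of all tested genes in each length bin. The bars fall from 0.15 at the shortest genes to -0.063 at the longest, and from 500 to 3000 bases the median of the subunit genes lies below them in each bin (0.022 against 0.080 at 500 to 800 bases).

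The length trend was a property of libraries as well as of groups. Per doubling of length, log2 deviations from the mean of all libraries changed by -0.0095, 0.0018, -0.024 and -0.056 in serine/glycine-free replicates 1 to 4, and by 0.0047, 0.016, 0.042 and 0.025 in control replicates 1 to 4 (9751 genes of at least 5 CPM). The steepest fall was in serine/glycine-free replicate 4, which also had the highest subunit levels, and replicate 2 was nearly flat. Core and accessory subunits differ in length too. The median was 1390 bases for the complex I core and 453 bases for its accessory subunits, with Ndufa4 counted among them. In complex III it was 1510 bases for the 3 larger and 356 bases for the 5 small subunits. Median log2 changes of these sets were -0.0072 and 0.085 in complex I and 0.019 and 0.16 in complex III. With the trend removed they were -0.0099 and -0.020, and -0.016 and 0.034. The cause of the trend was not tested.

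With each library's trend of log ratio on length removed, 2 subunit genes were higher and 10 lower, 2.6% and 13.0% of those tested, where all genes gave 15.9% and 17.1%. The median of the tested members went from 0.066 to -0.023, and by complex to -0.013 for I, -0.031 for II, 0.012 for III, -0.060 for IV and -0.027 for V. Of the 18 calls, 4 were kept: Ndufa12 (log2 change 0.12, SE 0.039, adjusted p = 0.0138) and Uqcrq (0.12, SE 0.039, adjusted p = 0.0168) were higher, and Ndufs8 (-0.28, SE 0.048, adjusted p = 3.63e-06) and Cox5a (-0.21, SE 0.025, adjusted p = 3.4e-10) were lower. The other 14 rises did not pass there, Uqcrb at 0.056 (adjusted p = 0.232) and Atp5h at 0.025 (adjusted p = 0.581) among them. The 8 genes that passed downward only with the trend removed were Ndufb8 (-0.16), Ndufa10 (-0.089), Cox6a1 (-0.16), Cox4i1 (-0.068), Atp5a1 (-0.062), Atp5b (-0.073), Atp5g3 (-0.13) and Atp5o (-0.092). With serine/glycine-free replicate 2 left out as well, 2 were higher and 11 lower (all genes 14.7% and 15.9%). Ndufs8 and Cox5a were lower with and without the removal.

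**Figure D5:**
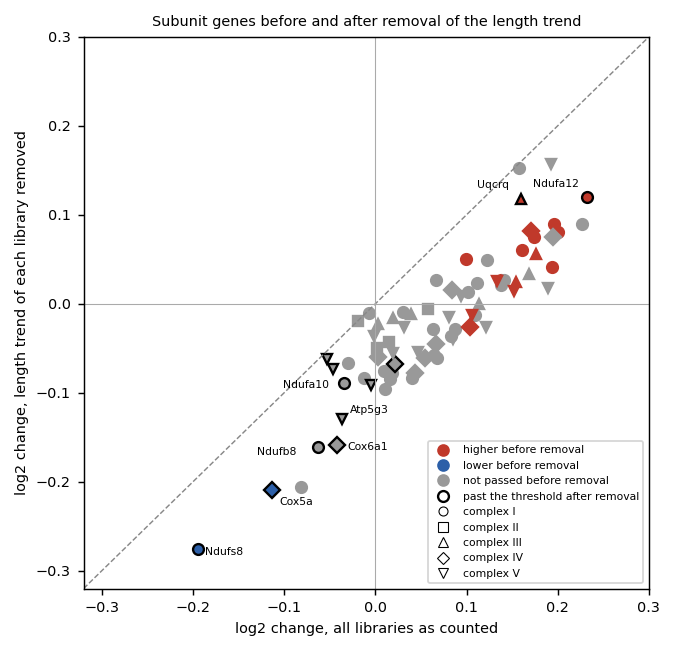
Log2 change of 76 tested subunit genes as counted (x axis) and with each library's length trend removed (y axis); colour gives the call as counted, black outlines those past an adjusted p of 0.05 after removal, symbol shape the complex, and the dashed line equal values. Nearly all points lie below the line, and 2 outlined points are above 0 and 10 below.

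Other families of short transcripts are given for comparison. Of 80 cytosolic ribosomal protein genes (median length 570 bases) 7 were higher and 5 lower (8.75% and 6.25%, against 15.9% and 17.3% of all genes). With the trend removed 1 was higher and 33 were lower, where all genes gave 15.9% and 17.1%. Mitochondrial ribosomal proteins serve the translation of the mitochondrially encoded subunits. Of their 78 genes (median length 913 bases) 14 were higher and 1 lower (17.9% and 1.28%), and 4 and 7 with the trend removed. Median log2 changes of the cytosolic and mitochondrial families were 0.038 and 0.057 as counted and -0.050 and 0.0036 with the trend removed.

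Assembly factors build the complexes without staying in them. None of the 16 for complex I and none of the 10 for complexes II and III passed (edgeR quasi-likelihood), against 33.2% of all genes. At an unadjusted p under 0.05 there was 1 in each of these lists, and 0 passed by DESeq2 and limma-voom. For complex IV, Cox16 rose (log2 change 0.21, adjusted p = 0.00287), Coa5 fell (-0.11, adjusted p = 0.00082) and so did Cox15, which makes heme A (-0.16, adjusted p = 0.0058), while 18 of 21 did not pass; the calls are 4.76% higher and 9.52% lower, against 15.9% and 17.3% of all genes. Coa5 was at 268, 272, 268 and 267 CPM in control and at 257, 244, 252 and 241 CPM in serine/glycine-free replicates, with no overlap. For complex V, Atpif1, the inhibitor of ATP hydrolysis by the synthase (0.15, adjusted p = 0.0324), and the assembly factor Tmem70 (0.12, adjusted p = 0.049) rose among 5 tested (40%, against 15.9% of all genes; 1 of 5 by DESeq2). Neither passed with the length trend removed.

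Of 18 genes of electron carriers and coenzyme Q synthesis 2 rose (11.1%, against 15.9% of all genes) and 0 fell (against 17.3%; edgeR, with 0 lower also at an unadjusted p under 0.05, by DESeq2 and by limma-voom). Coq8a, a kinase-like protein of coenzyme Q synthesis, was at 27.9, 28.3, 26.2 and 29.7 CPM in the control replicates and at 32.5, 35.3, 34.4 and 36.0 CPM without serine and glycine (log2 change 0.30, SE 0.051, adjusted p = 5.34e-06). All 4 serine/glycine-free libraries lay above all controls, replicate 2 included, and the value was 0.30 with the length trend removed as well. Coq7, a hydroxylase of the same pathway, rose by 0.23 (adjusted p = 0.00918), a call lost with the trend removed (adjusted p = 0.0747). Cyc1 (0.039, adjusted p = 0.473) and Cycs (0.056, adjusted p = 0.189) did not pass. Cox16, Cox15 and Coq8a had counts that were not whole in all 8 libraries, so their levels are uncertain where reads were shared between loci.

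Among 14 tested regulators of these genes 4 fell and 1 rose, 28.6% and 7.14% against 17.3% and 15.9% of all genes. Esrra, the nuclear receptor ERR alpha that activates many subunit genes, was at 77.2, 79.1, 76.8 and 76.1 CPM in control and at 67.0, 69.0, 66.5 and 69.9 CPM in serine/glycine-free replicates (log2 change -0.18, SE 0.036, adjusted p = 5.75e-05). Pprc1, a coactivator related to PGC-1, was at 104, 101, 97.7 and 99.7 CPM in control and at 87.5, 91.8, 88.2 and 88.4 CPM (-0.18, SE 0.033, adjusted p = 2.8e-05), and Ppargc1b, the coactivator PGC-1 beta, at 9.5, 9.76, 9.42 and 9.34 and at 7.02, 6.94, 9.02 and 7.72 CPM (-0.31, SE 0.089, adjusted p = 0.00556). In all 3 genes every serine/glycine-free library was below every control. Gabpb2, a partner of the ETS factor GABP, fell by 0.19 on the log2 scale (edgeR, adjusted p = 0.000177), also without overlap. The groups did not overlap for 5 of the 14 regulators, or 35.7%, against 30.6% of all genes. With the length trend removed the 4 genes that fell stayed lower, Esrra at -0.20 and Pprc1 at -0.14. Slirp, which stabilises mitochondrial messenger RNA, rose (0.19, adjusted p = 0.00582), but not with the trend removed (0.052, adjusted p = 0.481). The transcription factors Nrf1 (-0.039), Gabpa (-0.024) and Yy1 (-0.014) and the mitochondrial factor Tfam (0.0038) did not pass. Gabpb2 had counts that were not whole in 1 library and Nrf1 in 4. Ppargc1a was not analysed here.

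The 85 members lie on 19 chromosomes. For 27 tested members, 9 of them among the 18 calls, the annotation places exons of another gene over their own, in 24 cases on the opposite strand; Ndufs6 overlaps Mrpl36, Ndufa3 overlaps Tfpt and Ndufb6 overlaps Smim27 in this way. Whether the counting used strand is not given in the sources used here, so reads of such pairs may not be told apart. Estimated counts that were not whole occurred in 5 members, Ndufb4, Ndufb4b, Ndufb4c, Ndufa13 and Uqcrc2, and none of these is among the calls.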

How the data were processed

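RNA of 4 serine/glycine-free and 4 control libraries was captured on oligo-dT beads after Trizol extraction, per the labels' protocols. The submitters' processing notes name BWA, Bowtie2, RSEM and the mouse build GRCm38.p6; their versions and roles are not given in these sources. The authors deposited estimated counts, FPKM and TPM for each gene and library. The estimated counts as deposited, of which 8.06% to 8.47% per library were not whole, were rounded and tested. FPKM by the authors gave levels and, with the counts, each gene's effective length. TPM by the authors gave only the members' share of each library, 2.15% ± 0.0312 in control and 2.18% ± 0.0623 in serine/glycine-free libraries (SD, n = 4). The authors' 6 columns of averages per group were left out.

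Genes were filtered with edgeR's filterByExpr (minimum count 10, minimum total 15) and scaled by TMM. Both groups entered 1 quasi-likelihood fit (edgeR 4.0.16, R 4.3.3, robust) with 6 residual degrees of freedom, an F test per gene, Benjamini-Hochberg adjustment over 11700 genes and a threshold of 0.05; the common coefficient of variation was 2.78%. All 12 pairs of libraries within a group differed by more than sampling noise (chi-square per degree of freedom 1.42 to 3.61). The length trend was removed through offsets from a loess fit per library (span 0.5). Alternatives were library size alone, RLE size factors, other filters, a replicate block, DESeq2 1.42.0, limma-voom (limma 3.58.1), a threshold of 0.01, leaving out each library, and leaving out members with counts that were not whole or that are not subunits. Leaving out serine/glycine-free replicate 2 with the trend removed was chosen after seeing the data. The test and the length removal were tested on simulated data.

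Members, gene lists and the rule for named genes were chosen with earlier results of these data known. The rule named every called member, the catalytic or core members, tissue-restricted isoforms and their partners, the members highest and lowest in FPKM, those whose call changed with the length trend removed, and up to 3 genes of each list by adjusted p. Other genes of the lists, and Ndufb4, Ndufb4b, Ndufb4c, Ndufa11b and Ndufa13, were named after their values were seen. Positions, promoters and motif windows are from RefSeq's GRCm38.p6 and exon overlaps from an annotation of the same build. Single values of 1 tested member and 1 marker gene, which stay in the counts and sums, are not reported here.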

Additional observations from a re-analysis of the deposited data

Results flagged for a closer look

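In either group, sets of 4 libraries were screened for a library that stood apart from the other 3. The 94 sets covered the called and the core subunit genes, those whose call changed with the length trend removed, and the medians by complex. Not every named subunit gene was screened. A library stood apart in 4 sets, and chance alone marks about 1 in 20 such sets. Ndufb9 was at 46.6 CPM in serine/glycine-free replicate 2 and at 54.6 to 56.0 CPM in the other 3. Atp5b was at 800 CPM in the same library and at 822 to 826 CPM in the others. Ndufv1 was at 50.6 CPM in serine/glycine-free replicate 3 and at 56.0 to 56.1 CPM in the others. Ndufb8, a membrane-arm subunit of complex I, was at 108 CPM in control replicate 1 and at 97.8 to 98.7 CPM in the other controls.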

How the results depend on the processing

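DESeq2, limma-voom, RLE size factors, library size alone, both other filters (none, and a mean of 5 CPM or more), and leaving out members with counts that were not whole or that are not subunits kept the counts of higher and lower subunit genes within 1.5 times those reported. The count of higher genes was 7 at an adjusted p of 0.01 and 2 with the length trend removed, with the block added or serine/glycine-free replicate 2 left out as well; the count of lower genes was 10, 9 and 11. The medians with the trend removed, with the block added, and with replicate 2 left out were -0.0229, -0.0227 and -0.0189 over all complexes, -0.0125, -0.0145 and -0.0145 in complex I, -0.0308, -0.0308 and -0.0305 in II, 0.0121, 0.0123 and 0.0204 in III, -0.0603, -0.0602 and -0.0379 in IV, and -0.0266, -0.0267 and -0.0198 in V. Of 84 tested genes on the lists of assembly factors, carriers and regulators, 2 were higher with the trend removed and 3 with the block added. Of all genes, 15.9% were higher with the trend removed. Cox7c reversed to -0.0266 and, with the block, -0.0259, Atp5l to -0.0124 and -0.0124, and Cox4i1 to -0.0679. The cause of these shifts was not tested.

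Leaving out each library gave 10 to 32 higher and 2 to 4 lower subunit genes, and medians of 0.0494 to 0.100 over all complexes, 0.0499 to 0.108 in I, -0.00807 to 0.0315 in II, 0.0821 to 0.170 in III, 0.0101 to 0.0969 in IV and 0.0456 to 0.102 in V. The lists, with 84 genes tested in the fit of all libraries, had 4 to 7 higher and 6 to 7 lower genes. With all libraries 7.14% of them were higher and 7.14% lower, against 15.9% and 17.3% of all genes.

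The labels number replicates alike in both groups. Same-numbered libraries deviated together with correlations of -0.0737, 0.0625, 0.209 and -0.126 over 9751 genes. Pairs with unlike numbers ran from -0.207 to 0.18. The labels state no pairing, and whether same-numbered libraries share a batch was not tested. With the replicate block 21 subunit genes were higher and 2 lower, against 15.1% and 16.1% of all genes. The 8 members below the filter on low counts were not tested.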
